A study of Mus musculus with 5 samples.

Results

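X cells are the enteroendocrine cells (EECs) of the gut that make ghrelin, the hunger hormone encoded by Ghrl. They were looked for in 1 droplet library of tdTomato+ small-intestinal cells, pooled from 4 C57Bl/6J mice that were 6 weeks old. Neurog3-Cre recombined the R26-LSL-tdTomato reporter in precursors of endocrine cells, and everything that descends from such a precursor stays labeled, goblet and other non-endocrine cells among them. Differences between the pooled animals cannot be seen. A cell was a barcode with more than 1000 genes and under 10% of its unique molecular identifiers (UMIs) on mitochondrial genes, which left 9451 cells. Levels are given as UMIs per 10000 UMIs. X cells were the cells with at least 1500 Ghrl UMIs per 10000, under 500 of Gip, under 500 of Sst, and under 500 for the goblet genes Zg16, Fcgbp, Clca1 and Spink4 together. This rule kept 117 of the 9451 cells (1.24%, 95% interval 1.02 to 1.48%, exact Clopper-Pearson).

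A second experiment, bulk RNA sequencing of sorted cells, was used to follow the same genes. It held 12 libraries from 6 mice aged 6 to 8 weeks with Cck-Cre and the same reporter, which labels cells in which the Cck promoter has driven Cre, whatever they make at the time of the sort. Each mouse gave 1 CCK+ (tdTomato+) and 1 CCK- (tdTomato-) library. The mice were either fasted overnight (3 mice) or fasted and then refed with Ensure (3 mice).

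Ghrelin is made from a precursor that is cut by prohormone convertases and acylated on a serine by ghrelin O-acyltransferase, the product of Mboat4. The acylated form activates the receptor Ghsr and promotes feeding. Most ghrelin in the body comes from the stomach, and the cells of the small intestine that make it are rarer. Peptides of EECs are stored in granules with chromogranins, and many types of EEC release them when nutrients act on receptors of the cell. That account is of EECs in general, and the release of ghrelin was not measured.

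The members were selected by their Ghrl level, and with 1 library there are no replicates. All values from the droplet library below are therefore descriptions without a test, and their 95% intervals (Poisson for levels, Clopper-Pearson for shares, conditional binomial for ratios) cover counting error only. X cells were compared with 3032 other endocrine cells, those with Ghrl under 1500 and either Chgb at or above 20 or Cck at or above 500, under the same goblet limit. Of these, 139 were Gip-high, 41 were Sst-high, 961 were Cck-high and 1578 were Tph1-high (enterochromaffin cells make serotonin through Tph1), and 313 were none of these. X cells were deeper, with a median of 6904 UMIs (3006 to 13659), against 3816.5 in the comparison cells. Chgb was used to find the comparison cells but not X cells, so that its difference is partly set by the rule: 38 of the 117 X cells reached 20 of Chgb.

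Ghrl took up 38.3% of all UMIs in X cells. In single cells it ranged from 1514 to 7128 UMIs per 10000, with a median of 3836 and quartiles of 2850 and 4686. The 5 cells just inside the limit held 1514, 1525, 1531, 1542 and 1552, and the 5 just outside held 1479, 1451, 1449, 1423 and 1392, so that the limit fell in a continuous run of values. Under the same limits on Gip, Sst and the goblet genes, another 39 cells lay between 1000 and 1500 and 129 between 500 and 1000. Of the 137 cells with Ghrl at or above 1500, none was over the Gip or Sst limit and 20 were over the goblet limit. Free RNA was measured in barcodes with 1 to 100 UMIs, and it held 60.8 Ghrl UMIs per 10000. Goblet cells showed a Ghrl UMI in 98.8% of cells, at a median of 7.33 per 10000, which is the background of this hormone.

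**Figure D1:**
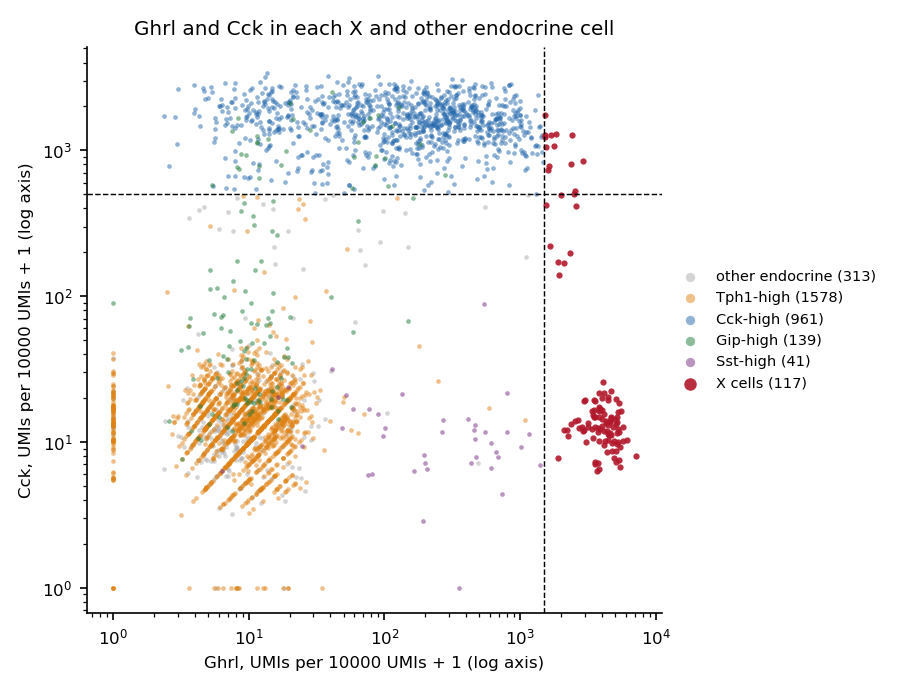
Each point is 1 cell, with its Ghrl level on the x axis and its Cck level on the y axis, both as UMIs per 10000 plus 1 on log axes, and colors give the set. Dashed lines mark the limits of 1500 for Ghrl and 500 for Cck. Most X cells (95 of 117) form a cloud at a Cck of 5.31 to 24.8, and the other 22 lie above it, at 138 to 1760, with a Ghrl of at most 2923.

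The Ghrl gene lies on chromosome 6 (chr6:113716119-113719880, minus strand, GRCm38, GENCODE M21), and Irs4, which led the ratios below, on the X chromosome (chrX:141710998-141725263, minus strand). The 200 bases from 250 to 51 bases before the outermost RefSeq start of each gene are shown, because Ghrl and Irs4 were high in the same cells. They are at chr6:113719962-113720161 and chrX:141725268-141725467 (GRCm38.p6, RefSeq), written 5′ to 3′ on the strand of the gene, and neither overlaps an annotated exon. Capitals mark the letters CANNTG, the general E-box core, whose middle letters differ between the matches. Binding of any protein to them was not tested.
Ghrl: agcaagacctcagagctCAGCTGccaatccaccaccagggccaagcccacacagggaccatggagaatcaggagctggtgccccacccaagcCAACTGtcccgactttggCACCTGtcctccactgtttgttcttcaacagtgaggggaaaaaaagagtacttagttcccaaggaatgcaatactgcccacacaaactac
Irs4: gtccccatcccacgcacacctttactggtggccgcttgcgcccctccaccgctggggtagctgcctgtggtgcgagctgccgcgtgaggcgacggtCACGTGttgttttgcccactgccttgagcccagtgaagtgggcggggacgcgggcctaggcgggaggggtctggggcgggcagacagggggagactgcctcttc

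The Ghrl window held 3 matches and the Irs4 window 1. CANNTG reads the same on both strands, and it was present in 59.0% of all 32851 windows of this length, so that a match is common. Of the 19 leading genes with a window, 12 (63.2%) held it, against 62.5% of all 27025 genes. TAAT, a core letter run of homeodomain factors, searched on both strands, was in neither window. It was present in 7 of the 19 genes (36.8%) and in 54.0% of all genes.

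The other genes given as markers of X cells were present at far lower levels than Ghrl, each with a higher level in X cells than in the comparison cells. Irs4, an adaptor of the insulin receptor family, was at 2.84 UMIs per 10000 (2.49 to 3.23) in X cells and 0.0195 in the comparison cells, a ratio of 146 (98.4 to 224). Fxyd2, the gamma subunit of the sodium pump, was at 3.56 (ratio 81.4, 61.8 to 109). Acsl1, which joins long-chain fatty acids to coenzyme A, was at 5.61 (ratio 29.9, 25.7 to 34.9). A UMI of Irs4 was found in 66.7% of X cells and 0.684% of goblet cells, of Fxyd2 in 70.9% and 0.431%, and of Acsl1 in 77.8% and 7.25%, where the median depth of goblet cells was 6923 UMIs and that of X cells 6904. At 2000 UMIs per cell the shares in X cells were 42.7%, 37.6% and 57.3%.

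These markers were found together in the same cells. Of 117 X cells, 58 (49.6%, 40.2 to 59.0%) held a UMI of all 3 genes and 31 held 2 of them. Another 16 cells held 1 and 12 (10.3%, 5.41 to 17.2%) held none. Among the 3032 comparison cells 1 held all 3 and 2725 (89.9%) held none. The 12 X cells without any of them were counted as X cells by their Ghrl level, and 8 of these 12 had Cck at or above 500.

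Across the 1274 genes with at least 1 UMI per 10000 in X or comparison cells, 45 (3.53%) were at least 2-fold higher and 180 (14.1%) at least 2-fold lower in X cells. The median ratio over these genes was 0.741. Hormone genes took up 41.6% of UMIs in X cells and 20.8% in the comparison cells, and leaving them out of the denominator raised every ratio 1.36-fold. On that scale 72 of the same 1274 genes were at least 2-fold higher and 114 lower. When the filter was applied on that scale as well, 1850 genes reached 1 UMI per 10000, with 130 higher and 137 lower. Counts of lists on that scale, given below, keep the 1274 genes. The 25 genes with the highest ratios were at least 4.13-fold higher, and in 8 other settings their ratios lay between 2.42 and 287.

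Among the genes nearest the top were Pcp4, a calmodulin-binding peptide (1.69 UMIs per 10000, ratio 86.9), Gper1, a membrane receptor that responds to estrogen (1.47, ratio 64.3), Plb1, a phospholipase (1.49, ratio 53.5) and Ina, the neurofilament protein alpha-internexin (3.99, ratio 38.3). A second neurofilament gene, Nefm, was at 1.58 (ratio 7.28). Maged2 reached 8.70 (ratio 26.1, 23.2 to 29.3). The protease inhibitor genes Serpina1a, Serpina1b and Serpina1d were at 4.23, 6.02 and 1.40, with ratios of 18.0, 6.03 and 4.81. These 3 genes are near-identical copies, and the split of reads between them is uncertain. Anpep, an aminopeptidase of the brush border, was at 7.47 (ratio 6.31), and free RNA held 1.66. Acat1, a mitochondrial thiolase, was at 1.28 (ratio 4.13).

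12 of the 25 were at least 4-fold higher than in each of the Gip-, Sst-, Cck- and Tph1-high cells, of 923 genes with at least 1 UMI per 10000 and a UMI in 25% of X cells (1.3%). They were Irs4, Pcp4, Fxyd2, Gper1, Plb1, Ina, Ghrl, Acsl1, Maged2, Serpina1a, Anpep and Acat1. The other 13 were shared with at least 1 further type of EEC, often the Sst-high cells. Ttr, the thyroxine carrier transthyretin, was at 35.1 in X cells and 20.4 in Sst-high cells, but at 2.52 to 5.24 in the Gip-, Cck- and Tph1-high cells. Ceacam10 was at 12.5 in X cells and 8.45 in Sst-high cells. Its neighbor Cd177 on chromosome 7, separated from it by 16894 bases, was at 2.39 and 3.93. The transcription factor Isl1 was at 4.92 in X cells, 6.51 in Sst-high and 4.39 in Gip-high cells, and at 0.0848 in Tph1-high cells. Scgn, the calcium sensor secretagogin, was at 3.85 in X cells and 2.99 in Gip-high cells. BC048546 and Acot7 were higher in the Sst-high cells (3.43 and 4.34) than in X cells (1.84 and 2.01).

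**Figure D2:**
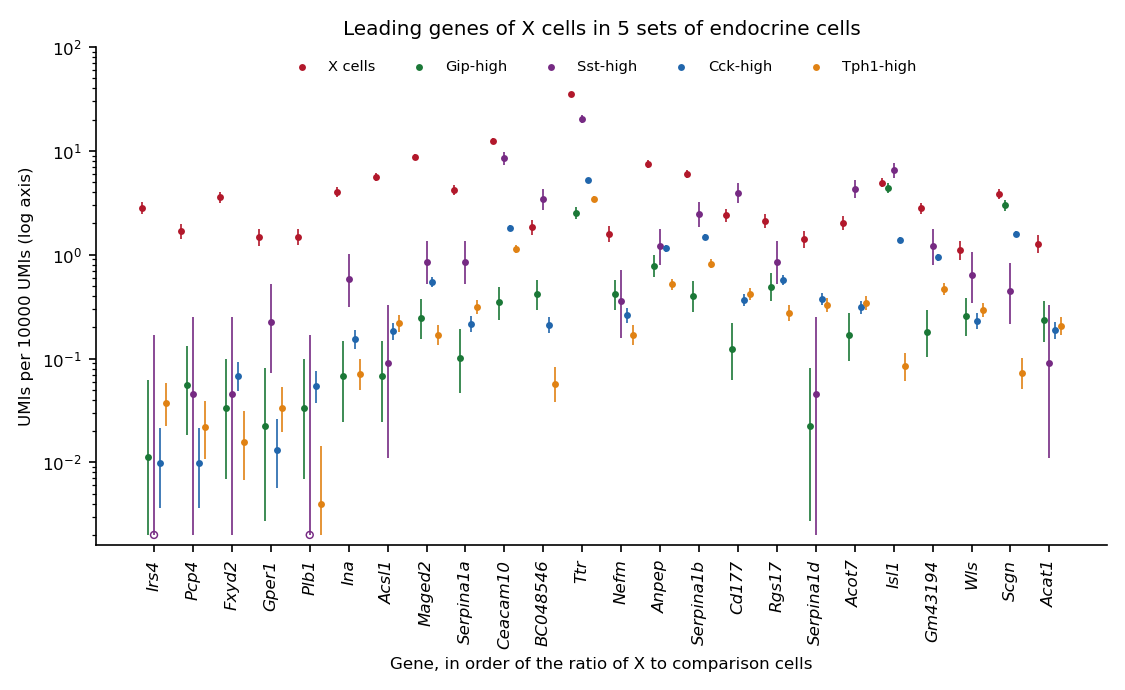
Levels of 24 leading genes (Ghrl left out) in UMIs per 10000 on a log axis, for X cells and 4 other sets, with vertical lines for 95% counting intervals and open circles on the lower edge for genes with no UMI. From Irs4 to Acsl1 the X cells stand well above every other set, whereas for Ceacam10, Ttr, Cd177, Acot7 and Isl1 the Sst-high cells come near or exceed them.

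Sst-high cells were also the set with the highest Ghrl level after X cells, at 387 UMIs per 10000 pooled and a median of 263 per cell. Cck-high cells were at 257 pooled and 149.9 at the median, Gip-high cells at 23.7 pooled and Tph1-high cells at 11.6 pooled. The 5 genes whose level followed Ghrl most closely over 8 sets of cells, of 1942 genes compared, were Lrpap1 (Pearson's r = 0.940), Gm43194 (0.939), Apom (0.932), Serpina1b (0.931) and Ceacam10 (0.906). All 8 points come from the same library, and X cells weigh heavily among them.

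The machinery that makes active ghrelin was present. Mboat4 was at 0.954 UMIs per 10000 (79 UMIs in 44.4% of X cells), 22.9-fold (16.2 to 32.6) above the comparison cells. Only the Sst-high cells came near it, at 0.723, and the Cck-high cells were at 0.0577. It was named by its list and lay just under the filter of 1 UMI per 10000, so that it is not among the 45 genes. The convertase gene Pcsk1 was at 3.81 in X cells and 3.61 in the comparison cells (ratio 1.05, 0.937 to 1.18). Cpe, the carboxypeptidase that trims cut peptides, was at 10.8 (ratio 1.16, 1.08 to 1.24), and Pam, which amidates peptides, at 3.87 (ratio 1.83, 1.63 to 2.06). Of 7 genes on this list that passed the filter, only Ghrl itself was 2-fold higher and none was 2-fold lower. On the hormone-free scale Pam also passed, at a ratio of 2.48.

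All 11 measured genes on the list of other hormones, which includes Tph1, were at least 2-fold lower in X cells, and 10 were on the hormone-free scale. Gip was at 7.70 against 189.7, Sst at 0.725 against 47.5 and Pyy at 1.49 against 22.9. Nts was at 1.05 against 34.9 and Tac1 at 0.109 against 4.36. The rule itself limits Gip and Sst, and Cck was a criterion for the comparison cells but not for X cells, so that its difference is partly set by the rule. Against Cck-high cells alone, the ratio was 0.638 for Gip, which is not 2-fold lower, and 0.462 for Sst, while it was 0.0777 for Pyy, 0.0143 for Nts and 0.236 for Tac1. These 5 levels were also below those of free RNA, which held 67.6, 9.21, 4.22, 6.98 and 1.13. Cck (151 against 746) and Sct, encoding secretin (169.8 against 893), had the highest levels in X cells among these hormones and are taken up below. Single X cells also reached 159.7 of Gip, 64.0 of Pyy, 51.6 of Nts and 45.5 of Tph1, where the medians were 6.20, 0, 0 and 0. That Tph1 level is above the limit of 20 set for Tph1-high cells. Gal, encoding galanin, lay under the filter at 0.375 (31 UMIs), 7.70-fold (4.88 to 11.9) above the comparison cells, and free RNA held none. Nucb2, the precursor of nesfatin-1, was at 0.616 (ratio 2.77, 2.02 to 3.73).

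Of 11 genes of granules and release that were measured, Scgn was 2-fold higher and 5 were 2-fold lower. Chgb (24.1 against 211) and Chga (18.9 against 63.7) encode chromogranins, Snap25 (0.701 against 2.76) encodes a part of the fusion machinery, and Slc18a1 (0.507 against 2.13) carries monoamines into granules. Ptprn, a protein of the granule membrane, was the fifth. Tph1-high cells held the most Chgb, at 391, and Cck-high cells held 94.0. Chga was at 18.9 in X cells and 13.7 in Cck-high cells, and at 137 in Tph1-high cells. Scg2 was at 11.4 against 15.4 and Scg3 at 2.95 against 2.39.

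Of 12 transcription factor genes that passed the filter, 3 were at least 2-fold higher and 4 at least 2-fold lower. Among the higher ones, Isl1 was at 4.92 (ratio 4.72) and the imprinted zinc finger gene Peg3 at 8.36 (2.26). Neurod1, a factor of endocrine differentiation, was at 4.53 against 10.1, Insm1 at 0.435 against 2.02, Onecut3 at 0.266 against 1.07 and Foxa1 at 0.290 against 1.17. Under the filter, the nuclear protein gene Zcchc12 had 33 UMIs in 24.8% of X cells (0.399 UMIs per 10000) and 0.00139 in the comparison cells, a ratio of 287 (73.4 to 2468). Nkx2-2 was at 0.942 (ratio 2.03, 1.58 to 2.57). On the hormone-free scale Neurod1 had a ratio of 0.607 and no longer passed the 2-fold limit, while those of Insm1 (0.292), Onecut3 (0.337) and Foxa1 (0.337) did.

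Irs4 and Fxyd2 had the highest ratios among the genes of their lists that passed the filter. Of the insulin signaling list only Irs4 and Pik3r1, a regulatory subunit of phosphoinositide 3-kinase, passed the filter, and Pik3r1 was at 1.32 (ratio 1.93, and 2.62 on the hormone-free scale). Insr was at 0.230 against 0.256, and Irs2 at 0.205 against 0.525. Igfbp3, which binds insulin-like growth factors, was at 0.604 (50 UMIs, ratio 14.3, 9.61 to 21.1). Among the sodium pump genes, Atp1b1 was at 2.61 against 2.89 and Fxyd3 at 9.23 against 13.5. In the list of fatty acid genes, Acsl1 and Acot7, a thioesterase, were higher, and Fabp1, Fabp2, Fabp5 and Dbi, which carry fatty acids or their esters, were at least 2-fold lower. Of the 34 genes of that list 7 passed the filter, and on the hormone-free scale only Fabp1 and Fabp5 were 2-fold lower.

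Receptors were sparse. Of 50 listed genes 2 passed the filter, the fatty acid receptor genes Ffar2 (1.20 against 2.03) and Ffar4 (1.37 against 0.996). Below it, 3 receptor genes were higher in X cells, on few UMIs. Adrb1, the beta-1 adrenergic receptor, had 16 UMIs in 11.1% of X cells and 4 UMIs in all comparison cells (ratio 69.6, 22.4 to 286). Avpr1b, a vasopressin receptor, had 16 UMIs in X cells and 8 in comparison cells (ratio 34.8). Hcar2, a receptor of hydroxybutyrate and niacin, had 15 and 12 (ratio 21.7, 9.50 to 50.9). These 3 were picked out after their values had been seen. Of 6 channel and transporter genes on their list that were measured, Hk2, encoding a hexokinase, was higher (1.41, ratio 2.04) and 4 were lower. Trpa1, the irritant channel of enterochromaffin cells, had 1 UMI in all X cells against 1.10 per 10000 in the comparison cells.

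The 15 genes with the lowest ratios among those at or above 2 UMIs per 10000 in the comparison cells were Iapp, Sst, Tac1, Nts, Afp, Gip, Reg4, Pyy, Apoc3, Cartpt, Tph1, Hspb1, Gpx3, Chgb and Gstt1. Iapp was at 0.0242 in X cells (2 UMIs) and 139 in Sst-high cells, and Reg4, a lectin of secretory cells, was at 7.25 and 353 in Tph1-high cells. Each of the 15 had a level in X cells below that in free RNA. When all genes at or below free RNA in X cells were left out, the counts were 16 lower and 44 higher.

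Summed markers of goblet, Paneth, enterocyte, tuft, immune and crypt cells lay below free RNA in X cells. The 10 goblet genes, 4 of which the rule limits, summed to 407 UMIs per 10000 in X cells and 357 in comparison cells, against 2249.7 in free RNA and 4471 in goblet cells. The Paneth genes summed to 36.1 and 69.3, with 2 of 6 measured genes 2-fold lower, and the enterocyte genes to 14.8 and 54.7, with 7 of 8 lower. The lists of tuft, immune and cycling crypt cells summed to 0.435, 0.338 and 0.447 in X cells, and no gene of theirs passed the filter. The list of immature endocrine cells summed to 29.6 in X cells, 19.1 in comparison cells and 9.91 in free RNA. Most of the sum in X cells came from 1 gene, Cdkn1a, a cell cycle inhibitor, at 21.4 (ratio 2.91, 2.76 to 3.06). It was the only 1 of the 6 measured genes that was 2-fold higher, and their median ratio was 0.769. Gadd45a was lower, and Sox4 was at 2.80 against 3.65. None of 9 measured immediate early genes differed 2-fold.

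X cells were not uniform, and Cck divided them. In 95 cells Cck lay between 5.31 and 24.8 UMIs per 10000, at a median of 11.6, where free RNA held 111. No X cell had a Cck level from there to 138. In 9 cells Cck was 138 to 497, and in 13 it was 526 to 1760. Those 13 would pass the Cck limit set for Cck-high cells, whose pooled level was 1685. The ranges were chosen after the cells had been seen.

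The 22 cells with Cck at or above 138 had less Ghrl and fewer UMIs of the other markers. Ghrl had a median of 4123 in the 95 cells with low Cck, 1984 in the 9 cells and 1689 in the 13. Irs4 was at 3.36 UMIs per 10000 (2.94 to 3.82) in the 95 cells. It was at 0 in the 9 cells, with an upper bound of 0.741, and at 0.441 (0.120 to 1.13) in the 13. Acsl1 was at 6.42, 2.61 and 1.10 in these sets. Only 3 of the 9 cells held a UMI of Acsl1, with a median of 0 and a maximum of 19.52. Its pooled level of 2.61 therefore does not describe a typical cell of the 9. Maged2 was lower in the 9 (2.81) and the 13 (1.87) than in the 95. It was seen in 5 of the 9 cells, with a median of 1.71, against a median of 9.90 in the 95. Fxyd2 was at 4.002 (3.54 to 4.50) in the 95 cells and 3.01 (1.69 to 4.97) in the 9, whose intervals overlap, and at 0.551 (0.179 to 1.29) in the 13. Sct was at 76.2, 586 and 650.5. All 3 markers beside Ghrl were unseen in 8 of the 13 cells, and in 4 of the 104 others.

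Other leading genes were less reduced in the 13 cells with Cck at or above 500. Ceacam10 was at 8.49 in these and 12.9 in the 104 other X cells, Isl1 at 3.31 and 5.12, Cd177 at 1.98 and 2.44, and Serpina1d at 1.43 and 1.40. Mboat4 had no UMI in the 13 cells and was at 1.07 in the 104. Chgb was at 56.9 in the 13 and 20.04 in the 104. Agr2, a gene of secretory cells, was at 28.2 in the 13 and 3.70 in the 104. With the 13 cells left out, an alternative added after seeing the data, 50 genes were at least 2-fold higher and 191 lower. The doublet score was among the 749 highest in 2 of the 13 cells and 6 of the 104, and in 6.53% of the comparison cells, and the part of doublets in the Cck of these cells was not tested. The 13 had a median of 6618 UMIs and the 104 of 6987.

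**Figure D3:**
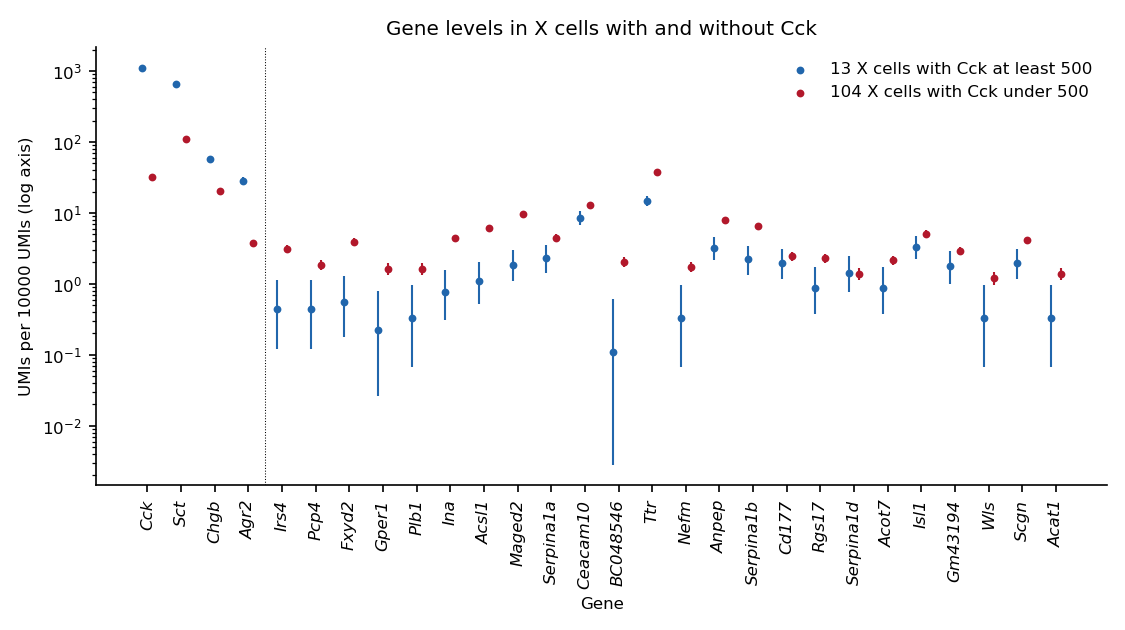
Pooled levels in UMIs per 10000 on a log axis in the 13 X cells with Cck at or above 500 (blue) and the 104 below it (red), with 95% counting intervals, for Cck, Sct, Chgb and Agr2 on the left and 24 leading genes on the right. Irs4, Fxyd2, Acsl1 and Maged2 are lower in the 13 cells, whereas the intervals of Cd177 and Serpina1d overlap.

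The genes were also followed along the Ghrl level of all endocrine cells, with Ghrl left out of the denominator. These ranges use the value that chose the X cells, and the lowest range of X cells, under 3000, holds all 22 cells with Cck and 12 others, so that it is no separate evidence for the split by Cck. In comparison cells with Ghrl of 100 to 500, 500 to 1000 and 1000 to 1500, Irs4 was at 0.00357, 0.0256 and 0.0471 UMIs per 10000. It was at 1.34 in X cells under 3000 (3.04 in the 12 cells without the 22, with an interval of 1.86 to 4.70), 6.37 in those of 3000 to 4500 and 6.31 in those above. Acsl1 was at 0.168, 0.436 and 0.518 in the 3 lower ranges and at 4.31 (8.22 in the 12), 12.4 and 10.4 in X cells. Fxyd2 was at 0.0928, 0.0769 and 0.565 in the 3 lower ranges and at 3.81 (7.31 in the 12), 8.24 and 4.62 in X cells. Ceacam10 was at 0.874 under 100, then at 2.11, 3.96, 8.19, 12.1, 23.8 and 25.6, each above the last. Mboat4 was at 0.0714, 0.179 and 0.423 in the 3 lower ranges and 0.672, 1.83 and 2.31 in X cells. Cck was at 435 under 100, and at 1659, 1638 and 1302 in the 3 ranges from 100 to the limit. In X cells it was at 660.4 under 3000 (15.8 in the 12), and at 21.1 and 22.5 in the others. The number of cells was 2406 under 100, then 449, 137 and 40 up to the limit and 34, 48 and 35 above it.

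**Figure D4:**
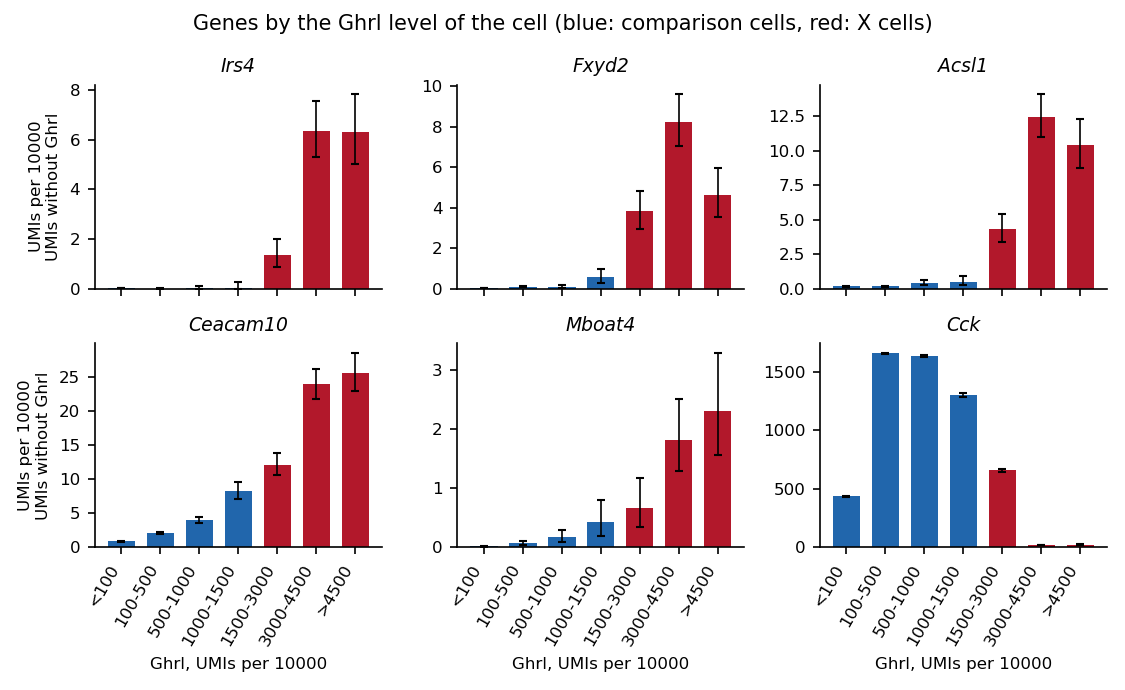
Bars give the level of 6 genes in UMIs per 10000 UMIs other than Ghrl, with 95% counting intervals, in 7 ranges of the Ghrl level on the x axis, for comparison cells (blue) and X cells (red). Irs4, Fxyd2 and Acsl1 are at most 0.565 in the blue bars and at least 1.34 in the red ones, Ceacam10 and Mboat4 have their highest bars in the last range, and Cck is lowest in the 2 highest ranges.

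Within the 95 X cells with Cck under 50, a set chosen after the values had been seen, the correlation with Ghrl was computed for some named genes only. Ghrl was left out of their denominator. Pearson's r with Ghrl on a log2 scale was -0.428 for Sct, 0.377 for Cck, 0.248 for Serpina1a and 0.232 for Ceacam10. Cck lay at 5.31 to 24.8 in these cells, below its level in free RNA, so that expression and background cannot be told apart for it. It was 0.063 for Irs4, -0.089 for Acsl1, -0.067 for Maged2, 0.020 for Ttr and -0.230 for Fxyd2. All cells share 1 library and were selected on Ghrl, and r was 0.184 for the UMIs of the cell. No r is given over all 117, which fall into separate groups by Cck.

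The 20 cells with Ghrl at or above 1500 that failed the goblet limit carried the X cell genes as well. Ghrl was at 2752, Irs4 at 2.37, Fxyd2 at 3.09, Acsl1 at 4.34 and Maged2 at 6.09, and 15 of the 20 held all 3 markers beside Ghrl. Zg16 was at 1038. Their median of 10265 UMIs was above that of X cells, and 6 of them had a doublet score among the highest, against 8 of 117 X cells (6.84%).

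The sorted bulk libraries asked whether genes of X cells are found among cells with a history of Cck, and whether they respond to refeeding. Cck was at 14837 to 32592 normalized counts in CCK+ and 27.6 to 86.0 in CCK- libraries, as their cell type labels give it. Normalized counts are the authors' gene counts after division by DESeq2 factors, and all 22042 genes were tested with limma on log2(normalized count + 1). In a bulk sample, fewer cells of a type and less RNA per cell cannot be told apart. The median log2 difference over all genes was 0.09, and 33.7% of genes were called at an adjusted p under 0.05 (19.6% higher and 14.1% lower in CCK+). Genes were taken from the droplet library and tested in other mice.

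Ghrl was at 2924, 999.8 and 2184.5 normalized counts in the CCK+ libraries of fasted mice and 2992, 2148 and 1140.5 in those of refed mice. It was at 41.6, 9.68 and 14.1 in the CCK- libraries of fasted mice and 14.4, 27.8 and 16.8 in those of refed mice. Every CCK+ library was far above every CCK- library, a log2 difference of 6.61 ± 0.36 (SE, adjusted p = 7.34e-09). Of the 24 leading genes in the table, 19 were higher in CCK+, 2 were lower and 3 did not pass the test. Their median log2 difference was 3.83. Lists not particular to X cells were higher too. Of 26 granule genes 25 were higher (median 5.06), and of 19 other hormone genes, Cck among them, 13 were (median 5.51). Cck-high cells of the droplet library also held Ghrl, at 2.57% of their UMIs. Which EECs carry the leading genes in the CCK+ libraries was not tested.

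Irs4 was at 35.2, 2.43 and 7.65 in CCK+ libraries of fasted mice and 9.38, 37.1 and 21.8 in those of refed mice. It was listed at 0 in 5 CCK- libraries and at 0.926 in the other, so that the groups did not overlap (log2 difference 3.71 ± 0.55, adjusted p = 1.13e-04 in limma). Ghrl did not overlap either. The share of all genes that separate CCK+ from CCK- libraries in this way was not counted. Fxyd2 was scarce, at 0 to 21.4 in CCK+ and 0 to 1.33 in CCK-, and the groups overlapped (2.02 ± 0.54, adjusted p = 0.00949). Among the 24 leading genes the largest log2 differences, in limma, were those of Serpina1a (6.87), Ghrl, Isl1 (6.59), Serpina1b (6.52) and Scgn (6.10). Serpina1b was at 187 to 619 in CCK+ and at 0.878 to 6.72 in CCK-. Scgn was at 0 or under 1 in 5 CCK- libraries and at 41.3 in 1 refed library.

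Of the 12 genes at least 4-fold over each other endocrine set, 4 were not called higher in CCK+, Anpep, Acat1, Acsl1 and Pcp4. Anpep was at 38819 to 101400 in CCK+ and 120120 to 159690 in CCK- (-1.05 ± 0.20, adjusted p = 9.19e-04), but with quantile normalization the difference was -0.32 and not called (adjusted p = 0.201). Acat1 was at 462 to 602 in CCK+ and 765 to 1212 in CCK- (-0.89 ± 0.12, adjusted p = 5.39e-05). Acsl1 was at 555 to 1713 in CCK+ and 794 to 2332 in CCK- (-0.57 ± 0.21), and it did not pass (adjusted p = 0.0528). With the mouse as a block, which pairs the 2 libraries of a mouse, Acsl1 was called lower (adjusted p = 0.0381). It was also called with a mean of at least 10 normalized counts (0.0439), and without the CCK- library of fasted mouse F (0.0319), the CCK- library of refed mouse C (0.0364) or the CCK+ library of fasted mouse B (0.0231). Of the 12 listed enterocyte genes 10 were lower in CCK+ and none higher. They summed to 167640 to 419890 in CCK+ and 476220 to 672880 in CCK- libraries, and their part in the difference of Anpep, Acat1 and Acsl1 was not tested. Pcp4 (0 to 5.50 in CCK+, adjusted p = 0.132) and BC048546 (adjusted p = 0.871) did not pass either. Pcp4 was called without the CCK+ library of fasted mouse F (adjusted p = 0.0294).

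Immune genes were also higher in the CCK+ libraries. Of the 8 listed immune genes 7 were higher in CCK+, such as the T cell genes Cd3e (503 to 1035, against 64.3 to 157) and Gzma (1541 to 3849, against 136 to 430). The list summed to 7372 to 12770 in CCK+ and 2931 to 9512 in CCK-. No gene of that list reached 1 UMI per 10000 in X cells, and its part in the 19 higher genes was not tested. Mboat4 was at 4.86 to 15.3 in CCK+ and 0 to 8.88 in CCK- (1.74 ± 0.59, adjusted p = 0.0338), and the groups overlapped.

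None of the 24 leading genes was called between refed and fasted mice in CCK+ libraries by limma. Of all genes 2.55% were called (1.31% higher and 1.23% lower). At an unadjusted p under 0.05 in limma 6 of the 24 passed. The share of all genes at that unadjusted limit was not counted, in CCK+ or in CCK- libraries. The 6 therefore cannot be set against the 2.55%. Ghrl had a log2 difference of 0.07 ± 0.50 (adjusted p = 0.982), and its refed and fasted values covered the same range. The 6 genes were Gper1, Anpep, Fxyd2, Nefm, Wls and Ina. Gper1 was at 3.47, 5.23 and 2.94 in fasted and 18.3, 49.3 and 19.9 in refed mice, without overlap (2.51 ± 0.81, unadjusted p = 0.00786 and adjusted p = 0.128 in limma). Nefm was at 84.2, 33.0 and 69.7 in fasted and 167, 221 and 159.7 in refed mice, also without overlap (adjusted p = 0.192 in limma). How many of all genes separate refed from fasted mice without overlap was not counted. Without 1 CCK- library, that of refed mouse E, Gper1 was called (adjusted p = 0.0442). In CCK- libraries limma called none of the 24 between refed and fasted mice (3 at an unadjusted p under 0.05), against 1.23% of all genes (0.708% higher and 0.526% lower). For the difference of the refed effect between CCK+ and CCK- cells limma called none of the 24 and 1 of all genes (0.00454%). None of the 24 had an unadjusted p under 0.05 for this difference in limma.

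**Figure D5:**
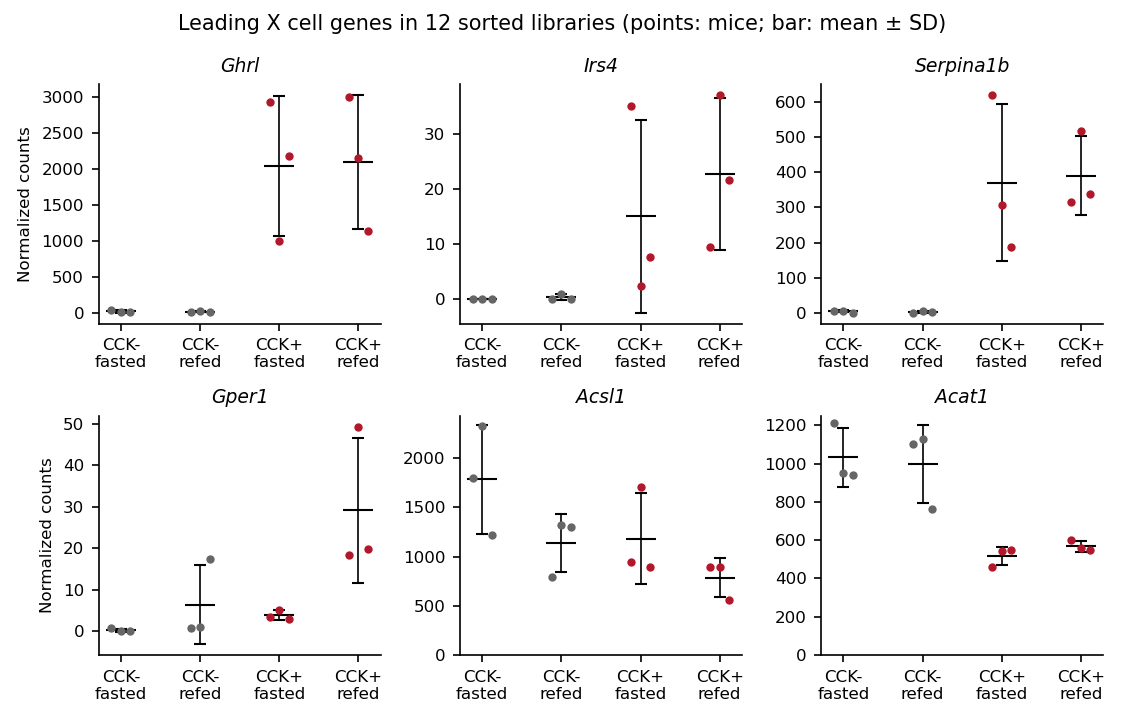
Normalized counts of 6 leading genes in the 12 libraries on linear axes, with 1 point per mouse and the mean and SD of each group of 3. Ghrl, Irs4 and Serpina1b are high in CCK+ (red) and near 0 in CCK- (gray), Gper1 is highest in CCK+ of refed mice, and Acsl1 and Acat1 are at or below their CCK- levels.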

How the data were processed

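Droplet data were UMI counts per gene and barcode, as deposited, without normalization. The authors aligned reads to mm10 with Cell Ranger 2.0.1, and the matrix holds all barcodes, 475960 with at least 1 UMI. Bulk values are a signal, the normalized count of each gene, which the authors made with Salmon 1.6.0 on a GRCm39 transcriptome after Trim Galore 0.6.7 and divided by DESeq2 factors. Whole reads are not given, so depth is unknown, and libraries sum to 7061155 to 11371114 normalized counts. GEO titles name all bulk groups CCK+, and the cell type labels and the table, which give 2 CCK- groups, were used.

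The members and the 19 gene lists were chosen with earlier results of these data known, and a list's counts are no independent evidence. Cells were pooled and UMIs divided by their sum (Python 3.11.15, numpy 2.4.6, scipy 1.17.1, scanpy 1.11.5). Named genes were the 4 markers, the 25 highest ratios among genes with at least 1 UMI per 10000 and a UMI in 25% of X cells, the 15 lowest with at least 2 UMIs per 10000 in the comparison, genes 4-fold over each set, and list members. Scrublet called 0 doublets, so it did not work as a caller, and none was removed. Bulk genes were matched by identifier and tested with limma 3.58.1 (R 4.3.3, pseudocount 1, 4 group means, 8 residual degrees of freedom, mean-variance trend, two-sided, Benjamini-Hochberg over 22042 genes). Libraries of 1 mouse are paired by design. Their deviations from the group means correlated at 0.0463 to 0.0650, and those of other mice at -0.0455 to -0.00973. Both methods were tested on simulated data. Alternatives were other filters, limits, denominators, thinning to 2000 UMIs, pseudocounts 0.5 and 5, quantile normalization, a mouse block and leaving out each library. Some listed genes are not reported here.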

Additional observations from a re-analysis of the deposited data

How the results depend on the processing

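The number of X cells was within 1.5 times of 117 under all 9 alternatives, from 101 with over 1500 genes to 156 with Ghrl at or above 1000. The count of genes at least 2-fold higher was 130 of 1850 without hormone genes in the denominator, where the 1274 genes of the main setting gave 72. It was 25 with a minimum of 2 UMIs per 10000, 82 with a minimum of 0.5, and 25 at a fold limit of 4. The count of genes at least 2-fold lower was 91 with a minimum of 2 UMIs per 10000, 356 with a minimum of 0.5, 68 at a fold limit of 4, 81 against Cck-high cells alone, and 16 without genes at or below free RNA. These minimums and limits set the number of genes by construction.

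In bulk, 19 to 22 leading genes were called between CCK+ and CCK- in the alternatives, and 21 to 22 when each library was left out in turn. Between refed and fasted CCK+ cells 0 to 1 were called when each library was left out, and 0 in the other alternatives. For the difference of the refed effect 0 were called throughout. With the mouse as a replicate block (within-mouse correlation 0.0962) the count was 22, Acsl1 being added, and no other call changed. With a mean of at least 10 normalized counts 20 of the genes could be tested. With 1 library and pooled mice, the spread between animals is unknown for every value of the droplet data, and genes with under 20 UMIs in X cells, Adrb1, Avpr1b and Hcar2 among them, rest on few cells.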
